A study of Mus musculus with 3 samples.

Results

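The S100 genes encode small calcium-binding proteins, and 10 of them are described here: S100a1, S100a4, S100a6, S100a8, S100a9, S100a10, S100a11, S100a13, S100a14 and S100a16. They were taken by symbol from a table of 56691 genes in which 20 symbols begin with S100, and the list was chosen by family name with the counts and FPKM of these same libraries already known, so their levels are a description and no test was made. RNA was sequenced from 3 cultures of mouse gastric corpus organoids, 1 library in each of 3 groups. Organoids are self-organised cultures of epithelium, here kept in Matrigel with a proliferation medium, and every title carries the label P5. Mice of about 8 weeks were of a line named Mist1Cre/ERT2;RFPLSL, or of the same line with the floxed allele Gpx4F/F in addition. The Gpx4 KO-Mist1+ culture has the genotype label Gpx4 KO, and the Mist1+ and Mist1- cultures are labelled WT. A Cre recombinase at the Mist1 locus and a red fluorescent reporter behind a stop cassette mark cells with Mist1 activity, which in the stomach is a feature of chief cells. Neither the number of animals nor the use of an inducer is given. Each library is RNA of a whole culture, in which fewer cells of a type and less RNA per cell cannot be told apart. With 1 library per group there is no replicate check, intervals cover counting error only, and every difference is one between these libraries.

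The libraries held between 14943918 and 16396693 counts. Gpx4 had 2569 counts in the library labelled Gpx4 KO-Mist1+, 1998 in Mist1+ and 4399 in Mist1-, so the whole-gene count was not lower in the labelled knockout than in Mist1+, and that library is called here by its label only. A count over the whole gene does not check the deleted exons themselves. Bhlha15, the gene of Mist1 itself, had 370 counts in the labelled knockout, 580 in Mist1+ and 282 in Mist1-. Epithelial markers were high in all 3 libraries, with the keratin gene Krt8 between 440 and 835 and the adhesion gene Epcam between 351 and 427 FPKM, the count scaled to exon length and library total.

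S100 proteins are built from a pair of EF-hands, the helix-loop-helix fold that holds calcium, and most work as dimers. On binding calcium most of them open a surface that docks onto target proteins such as annexins and cytoskeletal proteins. S100a10 is the exception: it no longer binds calcium and sits in a constitutive complex with annexin A2 at the plasma membrane. S100a8 and S100a9 form calprotectin, an abundant neutrophil protein pair that binds zinc and manganese, and S100a4 is known from fibroblasts and motile cells. In epithelia S100a6, S100a10 and S100a11 are widely expressed.

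All 10 genes lie on chromosome 3 in GRCm38 and are annotated as protein-coding in GENCODE M21. The first 8 lie within 185 kb, from the start of S100a1 at 90511034 to the end of S100a9 at 90695721. S100a11 and S100a10 lie 2824766 bases further on, with a gap of 28792 bases between them, from 93520488 to 93564643. S100a1 stands on the minus strand and S100a13 on the plus strand, with 42 bases between their starts. Only S100a4 overlaps another annotated gene, Gm42674 on the same strand, which had at most 1 count in a library. The pseudogene S100a11-ps had 0 counts in all 3 libraries.

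Promoter windows of RefSeq on GRCm38.p6, from 250 bases before to 50 bases after an annotated start, were at hand for 8 of the 10 genes; S100a10 and S100a14 are without one. Shown are 3 genes that were expressed in these organoids and 3 that were not. Capitals mark the words searched on both strands: TATAAA (the TATA box), GGGCGG (the GC box), TGANTCA (the AP-1 site bound by Fos and Jun), ACGTG (the core of the hypoxia response element) and GGAATG (the core bound by TEAD factors). The windows are chr3:90612644-90612943 (plus strand) for S100a6, chr3:93520246-93520545 (plus) for S100a11, chr3:90514185-90514484 (plus) for S100a13, chr3:90603520-90603819 (plus) for S100a4, chr3:90668821-90669120 (plus) for S100a8 and chr3:90695672-90695971 (minus) for S100a9.
S100a6: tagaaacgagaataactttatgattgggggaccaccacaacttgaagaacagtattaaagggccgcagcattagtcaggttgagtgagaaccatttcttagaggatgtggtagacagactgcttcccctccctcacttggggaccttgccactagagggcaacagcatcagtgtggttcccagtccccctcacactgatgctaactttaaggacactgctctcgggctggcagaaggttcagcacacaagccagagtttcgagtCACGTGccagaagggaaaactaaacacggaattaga
S100a11: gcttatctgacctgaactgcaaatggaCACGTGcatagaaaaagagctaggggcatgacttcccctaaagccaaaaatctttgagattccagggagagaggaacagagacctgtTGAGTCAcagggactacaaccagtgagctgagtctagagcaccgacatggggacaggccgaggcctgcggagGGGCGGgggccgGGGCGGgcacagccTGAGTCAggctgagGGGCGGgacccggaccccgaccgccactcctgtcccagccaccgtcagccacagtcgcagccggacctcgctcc
S100a13: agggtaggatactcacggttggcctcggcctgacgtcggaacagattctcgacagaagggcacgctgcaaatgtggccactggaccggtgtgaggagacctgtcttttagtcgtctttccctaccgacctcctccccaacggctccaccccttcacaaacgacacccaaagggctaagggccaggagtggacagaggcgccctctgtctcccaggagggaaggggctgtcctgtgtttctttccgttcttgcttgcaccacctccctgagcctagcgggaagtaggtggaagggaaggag
S100a4: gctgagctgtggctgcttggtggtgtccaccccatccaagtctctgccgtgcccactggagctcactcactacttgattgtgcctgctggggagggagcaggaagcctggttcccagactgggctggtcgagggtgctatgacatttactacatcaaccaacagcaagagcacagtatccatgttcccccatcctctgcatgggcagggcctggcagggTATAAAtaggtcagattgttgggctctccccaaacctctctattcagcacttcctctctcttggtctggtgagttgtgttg
S100a8: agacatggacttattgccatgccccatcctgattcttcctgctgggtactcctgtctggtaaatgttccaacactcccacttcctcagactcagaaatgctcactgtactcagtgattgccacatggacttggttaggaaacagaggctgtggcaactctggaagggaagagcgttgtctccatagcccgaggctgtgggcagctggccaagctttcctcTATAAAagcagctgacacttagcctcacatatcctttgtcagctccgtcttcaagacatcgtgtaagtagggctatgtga
S100a9: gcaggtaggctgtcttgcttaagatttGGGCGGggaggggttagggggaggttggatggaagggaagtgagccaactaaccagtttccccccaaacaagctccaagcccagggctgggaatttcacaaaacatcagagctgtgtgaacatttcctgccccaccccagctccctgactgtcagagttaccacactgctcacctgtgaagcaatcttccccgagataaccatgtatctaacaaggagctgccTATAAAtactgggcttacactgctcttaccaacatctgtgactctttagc
The windows of the 3 genes that were close to 0 in these organoids, S100a4, S100a8 and S100a9, each hold TATAAA. With the annotated start as position 0 the word begins at -31 in S100a4, at -30 in S100a8 and at 0 in S100a9. None of the 5 expressed genes with a window, S100a1, S100a6, S100a11, S100a13 and S100a16, holds it. Over all genes matched by symbol, TATAAA stood in 8.61% of 9248 genes that reached 1 FPKM and in 19.8% of 11742 genes without. S100a11, the most abundant member, has the densest window. It holds GGGCGG 3 times (35.7% of 32851 promoters hold it at least once), TGANTCA 2 times (7.81%) and CACGTG, which reads ACGTG on both strands (19.6%). S100a6 has CACGTG just downstream of its start, and no window of a member holds GGAATG (14.7%). The windows of S100a1 and S100a13 share 204 bases and hold none of the 5 words. A word in a window is a description and not a site.

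Of the 10 genes 7 reached 1 FPKM in a library, and S100a11 exceeded all others in each. S100a11, whose protein partners annexin A1 in membrane traffic and growth control, had 9980 counts in the library labelled Gpx4 KO-Mist1+, 9611 in Mist1+ and 16566 in Mist1-. Its FPKM was 1191 (95% interval 1168 to 1215), 1162 (1139 to 1185) and 2169 (2136 to 2203) in the same order, which placed it 16th, 15th and 13th among all genes. It gave 77.3% of the summed FPKM of the 10 genes in the labelled knockout, 87.2% in Mist1+ and 79.5% in Mist1-. Together the 10 genes took 0.104% (0.102 to 0.105, exact binomial) of the counts in the labelled knockout, 0.0788% (0.0774 to 0.0801) in Mist1+ and 0.179% (0.176 to 0.181) in Mist1-. Mist1- had the highest FPKM for 6 of the 7 genes, each with an interval apart from those of the other libraries, and S100a14 was highest in the labelled knockout. For S100a10 the order of Mist1- and the labelled knockout depended on the processing, as given below.

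**Figure D1:**
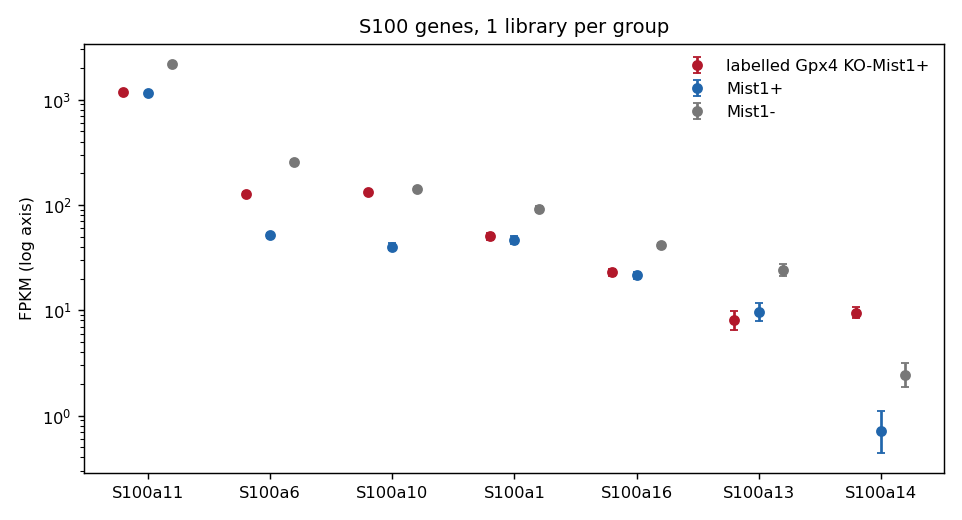
FPKM of the 7 S100 genes that reached 1 in some library, on a log axis, with 95% Poisson intervals and 1 point per library. S100a11 stands near or above 1162 FPKM in all libraries, and Mist1- is highest for all but S100a14. Mist1+ is lowest for 6 of the 7 genes, with intervals apart for S100a6, S100a10 and S100a14 only.

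S100a6, also known as calcyclin, and S100a10, the annexin A2 partner also known as p11, came next. S100a6 had 2858 counts in the labelled knockout, 1135 in Mist1+ and 5265 in Mist1-, or 128 (123 to 132), 51.3 (48.4 to 54.4) and 258 (251 to 265) FPKM. The intervals were apart, with Mist1- highest and Mist1+ lowest. S100a10 had 2610, 788 and 2581 counts in the same order, or 131 (126 to 136), 40.2 (37.4 to 43.1) and 142.5 (137 to 148) FPKM. Here the labelled knockout was close below Mist1-, and Mist1+ stood well under both. S100a6 and S100a10 did not differ beyond their intervals in the labelled knockout, while S100a6 was 1.81 times S100a10 in Mist1- and 1.28 times in Mist1+ on FPKM. S100a11, S100a10 and S100a6 together made up 94.1% of the summed FPKM of the 10 genes in the labelled knockout, 94.1% in Mist1+ and 94.2% in Mist1-.

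S100a1, best known as a regulator of calcium cycling in muscle, had 573 counts in the labelled knockout, 524 in Mist1+ and 940 in Mist1-. Its FPKM was 50.4 (46.3 to 54.7), 46.6 (42.7 to 50.8) and 90.6 (84.9 to 96.6). S100a16, a widely expressed member, had 605, 561 and 998 counts, or 22.8 (21 to 24.7), 21.4 (19.7 to 23.3) and 41.3 (38.8 to 43.9) FPKM in the same order. For both genes the labelled knockout and Mist1+ overlapped and Mist1- was above them. S100a13, which takes part in the release of fibroblast growth factor 1 by a route without a signal peptide, had 94 counts in the labelled knockout, 112 in Mist1+ and 258 in Mist1-, or 8.02 (6.48 to 9.81), 9.68 (7.97 to 11.6) and 24.2 (21.3 to 27.3) FPKM. The neighbours S100a1 and S100a13, which start 42 bases apart on opposite strands, shared the order of a high Mist1- library over 2 lower ones that overlap. This order was not particular to them, since S100a16 and the distant S100a11 had it too.

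S100a14, an epithelial member with a degenerate calcium site, was the gene with another order. It had 268 counts in the labelled knockout, 20 in Mist1+ and 63 in Mist1-, or 9.46 (8.36 to 10.7), 0.72 (0.437 to 1.10) and 2.44 (1.88 to 3.12) FPKM. The 3 intervals were apart. S100a14 was the lowest of the 7 genes in Mist1+ and in Mist1-, whereas in the labelled knockout it stood beside S100a13 with overlapping intervals. S100a13 over S100a14 was 0.848 in the labelled knockout, 13.4 in Mist1+ and 9.90 in Mist1- on FPKM.

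S100a4, S100a8 and S100a9 were at or near 0. S100a4 had 1 count in the labelled knockout, 0 in Mist1+ and 4 in Mist1-; S100a8 had 1, 0 and 0; and S100a9 had 0, 0 and 1. A count of 0 in Mist1+ allows up to 0.317 FPKM for S100a4, 0.267 for S100a8 and 0.355 for S100a9, at a floor of 3 counts. Their differences were not detectable at this depth. Markers of the cell types these genes are known from were low or at 0. Of 16 neutrophil and myeloid markers 14 had at most 3 counts in any library, and Itgam, Mpo, Elane, Ly6g, Cxcr2 and Retnlg had 0 in all. The other two, which epithelium can also express, were the lysosomal gene Cd68, with 24.4 FPKM in the labelled knockout, 5.06 in Mist1+ and 4.37 in Mist1-, and the lactoferrin gene Ltf, with 43.3, 9.81 and 16.8 FPKM. Of 12 fibroblast and mesenchymal markers only fibronectin, Fn1, reached 1 FPKM, with 4.04 in the labelled knockout, 5.31 in Mist1+ and 2.35 in Mist1-. Of the other 11, Vim, the intermediate filament of mesenchymal cells, had the most, with 6 counts in the labelled knockout, 19 in Mist1+ and 39 in Mist1-, and Pdgfra, Pdgfrb, Lum and Thy1 had 0 in all 3 libraries.

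Of the 8 other S100 genes in the table, S100g alone reached 1 FPKM. S100g, the intestinal calcium carrier calbindin-D9k, had 2 counts in the labelled knockout, 4 in Mist1+ and 21 in Mist1-, or 0.25, 0.51 and 2.93 FPKM. In Mist1- this was above the levels of S100a4, S100a8 and S100a9. In the labelled knockout and in Mist1+ the intervals of S100g and S100a4 overlapped. S100a7a had 14, 9 and 2 counts, S100z 5, 5 and 0, and S100b 0, 2 and 5 in the same order. S100a2, S100a3, S100a5 and S100a7l2 had at most 3 counts in a library. Of 7 genes of the fused type, in which an S100 domain leads a long repeat protein of the skin barrier, Tchh reached 1.9 FPKM in the labelled knockout and 5 had 0 counts throughout.

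**Figure D2:**
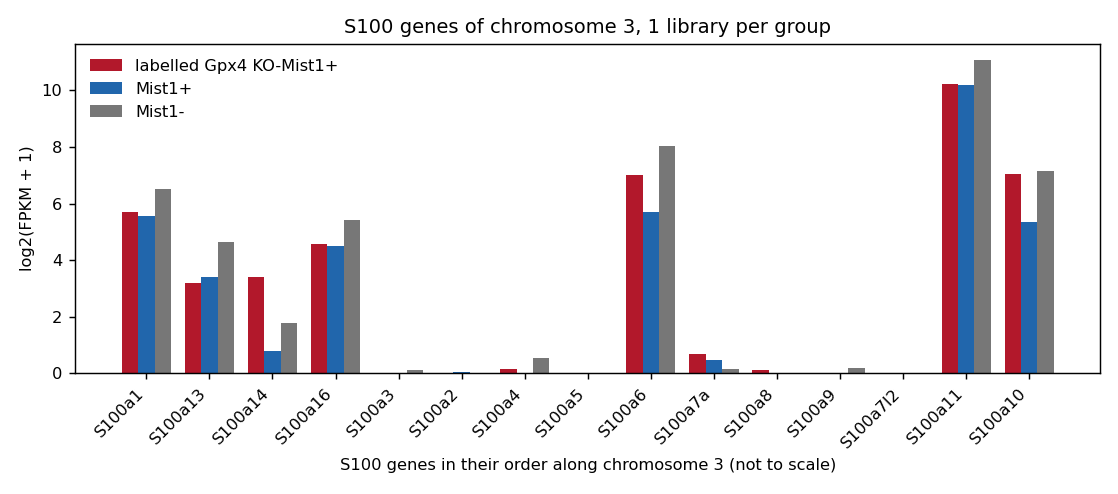
Level of the 15 S100 genes of chromosome 3 as log2(FPKM + 1), in their order along the chromosome and not to scale, with 1 bar per library. S100a6 is high between S100a5 and S100a7a, which stay under 1 FPKM.

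Mist1+ set against Mist1- addresses how organoids differ by the Mist1 activity of their founder cells. All 7 measured S100 genes were lower in Mist1+. So were 40.5% of the 13351 genes that reached 1 FPKM in any library. Among genes with exonic lengths of 511 to 1727 bases the share was 72.5%, and among the protein-coding ones of these 88.4%. Ratios were taken as log2 of FPKM + 1, and a gene was counted when at least 2-fold apart. S100a6 (-2.31), S100a10 (-1.80), S100a13 (-1.24) and S100a14 (-1.0) were at least 2-fold lower, the last exactly at the limit, and none was higher. S100a1 (-0.94), S100a16 (-0.92) and S100a11 (-0.90) stood just short of 2-fold. On counts scaled to column totals S100a6 was 5.02-fold (4.71 to 5.36) lower in Mist1+, S100a10 3.55-fold (3.27 to 3.85) lower, S100a14 3.41-fold (2.04 to 5.96), S100a13 2.50-fold (1.99 to 3.14), S100a1 1.94-fold (1.74 to 2.17), S100a16 1.93-fold (1.74 to 2.14) and S100a11 1.87-fold (1.82 to 1.91).

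S100 genes are short, and short genes as a class were lower in Mist1+. Of the 13351 genes that reached 1 FPKM in any library, 5.73% were lower by this measure and 7.88% were higher, and the median ratio was 0.15. The 10 S100 genes have exonic lengths of 511 to 1727 bases, and among the 1896 genes in that range 18.1% were lower and 4.59% higher, with a median of -0.49. Over the 200 genes nearest in length to each member, 1339 in all, the shares were 18.2% and 4.63%. Of the 1059 that M21 calls protein-coding, 24.5% were lower and 0.944% higher, with a median of -0.69. Within these protein-coding genes 32.5% had a lower ratio than S100a11, 30.7% than S100a16, 28.8% than S100a1 and 24.4% than S100a14. On log2 of FPKM + 1 these 4 thus stood inside the bulk of their length class. For S100a13 the share was 12.3%, for S100a10 1.04% and for S100a6 0.567%. With the trend on length removed S100a6 and S100a10 were still at least 2-fold lower and S100a13 (-0.91) and S100a14 (-0.65) were not. S100a13 was also short of 2-fold once the FPKM of each library were brought to a common sum (-0.97) and with a pseudocount of 5 (-0.99), and S100a14 with a pseudocount of 5 (-0.38). With a pseudocount of 0.1, which shrinks the ratio of a low gene less, S100a14 was at -1.63. Its place in the length class was not computed at that setting. After median ratio scaling all 7 were at least 2-fold lower.

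**Figure D3:**
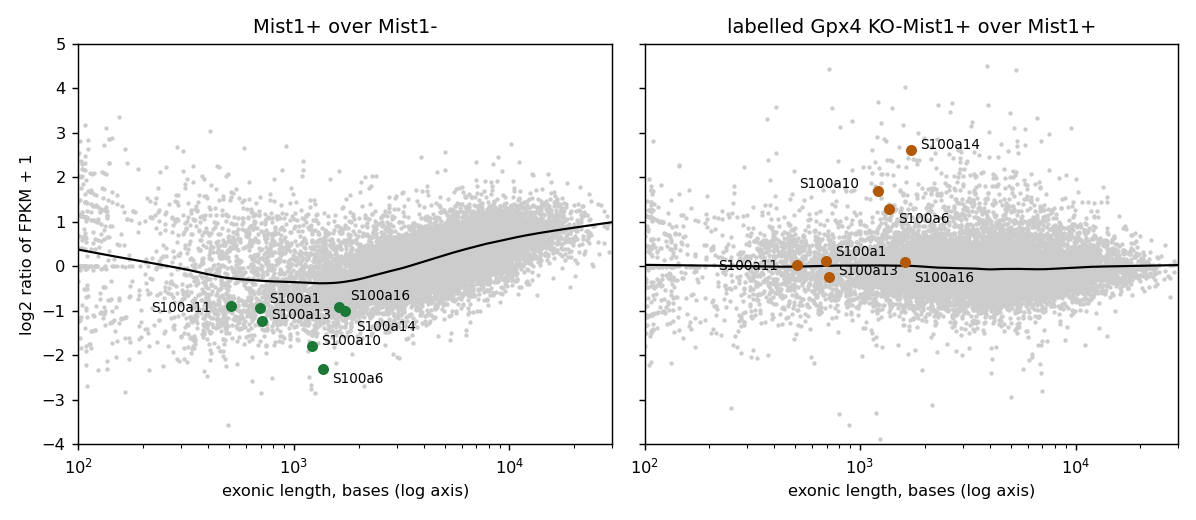
Log2 ratio of FPKM + 1 against exonic length on a log axis for 13351 genes (grey; points beyond the axes are not drawn) with the lowess trend (black) and the 7 S100 genes (coloured), for Mist1+ over Mist1- (left) and the labelled Gpx4 KO-Mist1+ over Mist1+ (right). On the left the trend dips for genes of S100 size and S100a6 and S100a10 lie far under it; on the right the trend is flat and S100a14, S100a10 and S100a6 lie above it.

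The second pair is the labelled Gpx4 KO-Mist1+ library over Mist1+, and its directions belong to the label only. The Gpx4 count was not lower in the labelled library, and genotype and culture cannot be told apart. The family split here. S100a14, S100a10 and S100a6 were past 2-fold upwards and no member was past it downwards, beside 4.81% higher and 2.74% lower among all 13351 genes. The shares were 6.38% and 3.01% among the 1896 genes of like length and 7.93% and 3.40% among the protein-coding ones, and over the genes nearest in length they were 6.50% and 3.29%. On scaled counts S100a14 was 13.2-fold (8.40 to 22.0) higher, S100a10 3.27-fold (3.02 to 3.55) and S100a6 2.49-fold (2.32 to 2.67), with log2 ratios of 2.60, 1.68 and 1.30. The other 4 had intervals that include 1: S100a1 at 1.08 (0.957 to 1.22), S100a16 at 1.06 (0.948 to 1.2), S100a11 at 1.03 (0.997 to 1.05) and S100a13 at 0.829 (0.623 to 1.10).

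In this pair the medians of the length classes were close to that of all genes, while the share of higher genes was larger among protein-coding genes of S100 size. The median log2 ratio was -0.09 over all genes, -0.05 over genes of like length and -0.09 over the protein-coding ones. Among the last, 98.7% had a lower ratio than S100a14, 96.0% than S100a10 and 94.5% than S100a6, whereas S100a1 (64.3%), S100a16 (63.3%), S100a11 (60.3%) and S100a13 (37.8%) lay nearer the middle. The 3 genes were at least 2-fold higher under every scaling, pseudocount and filter tried, and at a 4-fold limit S100a14 alone was.

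**Figure D4:**
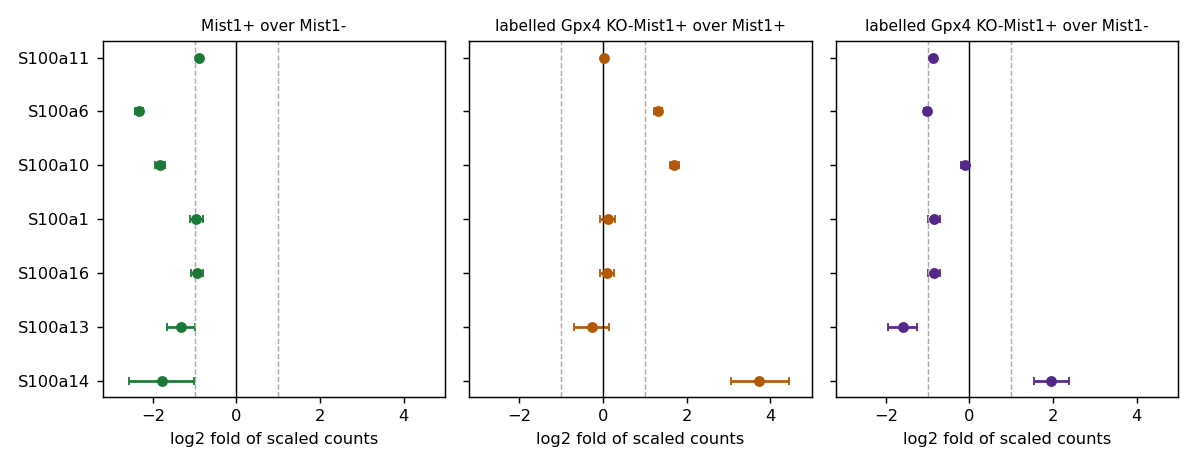
Log2 fold of counts scaled to column totals for the 7 S100 genes, with exact 95% intervals for counting error, in the 3 comparisons; dashed lines mark 2-fold. S100a6, S100a10 and S100a14 lie left of 0 in the first panel and right of it in the second, and S100a1, S100a11, S100a13 and S100a16 lie left of 0 in the first and near 0 in the second.

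Set against Mist1-, the labelled knockout was lower in scaled counts for 6 of the 7 genes and higher for S100a14. Mist1+ and Mist1- each serve in 2 of the 3 comparisons, so these values are not independent of those above. The log2 ratio was below 0 for 45.2% of all 13351 genes, 69.1% of genes of like length and 81.2% of the protein-coding ones. Relative to Mist1-, S100a13 was 3.01-fold (2.37 to 3.86) lower in the labelled knockout and S100a6 2.02-fold (1.93 to 2.12) lower, with log2 ratios of -1.48 and -1.01, and S100a14 was 3.88-fold (2.94 to 5.19) higher. S100a6 was just past 2-fold and stood short of it with a pseudocount of 5 (-0.99), on the common sum of FPKM (-0.72) and with the length trend removed (-0.64), and S100a14 stood short with a pseudocount of 5 (0.96). Among all 13351 genes 8.56% were at least 2-fold lower and 11.6% higher; among genes of like length the shares were 22.6% and 7.75%, among the protein-coding ones 33.6% and 4.06%, and over the genes nearest in length 22.0% and 7.39%. S100a11 was 1.82-fold (1.78 to 1.87) lower, S100a16 1.81-fold (1.63 to 2.01) and S100a1 1.80-fold (1.62 to 2.0). S100a10 was 1.09-fold (1.03 to 1.15) lower, a log2 ratio of -0.12 that turned to 0.17 once FPKM were brought to a common sum and to 0.24 with the length trend removed. Of the protein-coding genes of like length 98.0% had a lower ratio than S100a14 and 77.5% than S100a10, against 33.1% for S100a6 and 11.8% for S100a13.

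On FPKM S100a10 and its partner annexin A2 both had Mist1- highest and Mist1+ lowest. For S100a10 the place of Mist1- above the labelled knockout depended on the processing. Anxa2 was at 217 FPKM in the labelled knockout, 105 in Mist1+ and 273 in Mist1-. It was 2.60-fold (2.53 to 2.68) lower in Mist1+ than in Mist1- and 2.07-fold (2.01 to 2.14) higher in the labelled knockout than in Mist1+. The tissue plasminogen activator gene Plat, whose protein the complex can bind at the cell surface, was at 23.5 FPKM in the labelled knockout, 8.02 in Mist1+ and 9.47 in Mist1-. Ahnak, a very large scaffold protein that also binds the complex, was at 19.1, 11.5 and 5.45 FPKM in the same order, so Mist1+ exceeded Mist1- by 2.12-fold, unlike for S100a10.

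Among partners of other members some had Mist1- highest, as the S100 gene did, and some did not. Anxa1, the partner of S100a11, was at 113 FPKM in the labelled knockout, 124 in Mist1+ and 173 in Mist1-. For S100a6 the ubiquitin ligase adaptor Cacybp, calcyclin-binding protein, was at 34.0, 40.4 and 57.3 FPKM, and the annexin Anxa11 at 40.0, 40.6 and 32.1 FPKM in the same order. The heavy chain of nonmuscle myosin, Myh9, a target of S100a4, was at 42.2, 51.8 and 23.6 FPKM although S100a4 itself was near 0. Among the receptors of extracellular S100 proteins, basigin, Bsg, was at 1955 FPKM in the labelled knockout, 372 in Mist1+ and 786 in Mist1-. Bsg was thus 5.25-fold (5.15 to 5.36) higher in the labelled knockout than in Mist1+. The Toll-like receptor gene Tlr4 was at 7.59, 10.2 and 5.81 FPKM, and the receptor for advanced glycation end products, Ager, had an FPKM of 0.57 or less.

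As lists, 13 of 18 partners and receptors passed the filter. The shares over all genes that passed, for this and the next lists, were 5.73% lower and 7.88% higher in Mist1+ relative to Mist1-, and 2.74% lower and 4.81% higher in the labelled knockout relative to Mist1+. With so few genes in a list, counts of this size are given as a description. In Mist1+ relative to Mist1-, 2 of them were at least 2-fold lower and 1 higher, with a median of 0.08; in the labelled knockout relative to Mist1+, 3 were higher and none lower, with a median of -0.08. Of 12 annexins 11 passed, and 2 were lower and none higher in Mist1+ relative to Mist1- (median -0.49), while 4 were higher and none lower in the labelled knockout relative to Mist1+ (median 0.40). Beside Anxa2 the 4 were Anxa8 (5.88-fold, 5.04 to 6.88), Anxa9 (4.94-fold, 2.91 to 8.87) and Anxa3 (2.06-fold, 2.0 to 2.13). Of 17 other EF-hand genes, which include calmodulins and sorcin, 13 passed and none was at least 2-fold apart in either comparison; their medians were -0.21 and -0.23. Anxa1, Anxa2, Anxa6 and Anxa11 are on both of the first lists.

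**Figure D5:**
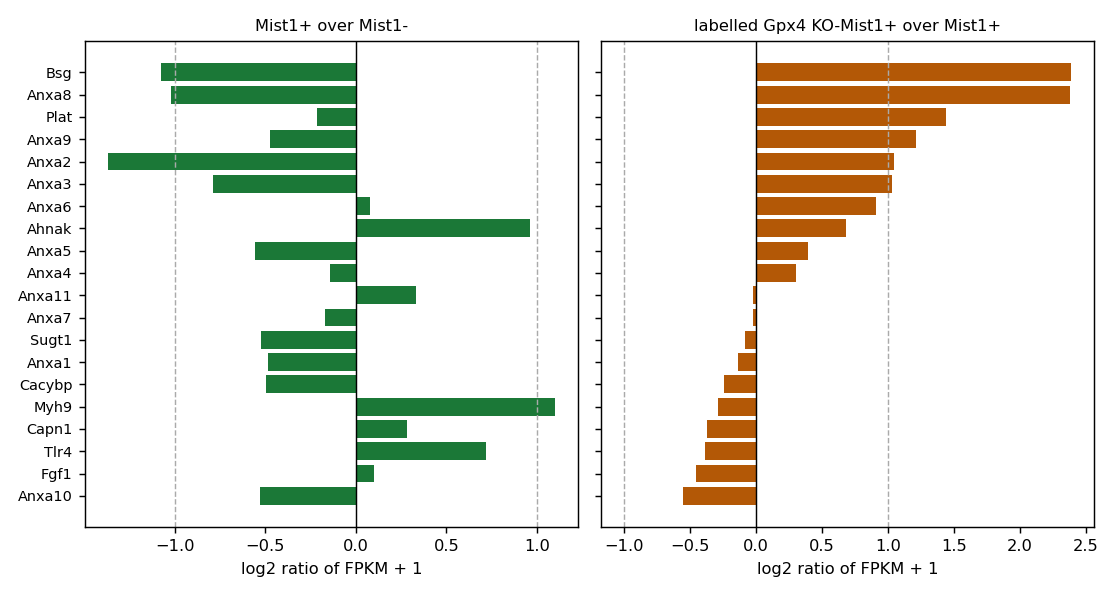
Log2 ratio of FPKM + 1 for the 20 annexin, S100 partner and receptor genes that passed the filter, in Mist1+ over Mist1- (left) and the labelled Gpx4 KO-Mist1+ over Mist1+ (right); dashed lines mark 2-fold. Bsg, Anxa8 and Anxa2 are past the lower line on the left and past the upper line on the right, while Anxa1, Cacybp and Anxa11 stay within both.

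The other genes around the family are few, and their counts stand beside the same shares over all genes, 5.73% lower and 7.88% higher in Mist1+ relative to Mist1-, and 2.74% lower and 4.81% higher in the labelled knockout relative to Mist1+. None of the 4 other genes between S100a1 and S100a9 passed the filter. In the 2825 kb between S100a9 and S100a11, the stretch of the skin barrier genes, 10 of 97 other genes passed, of which 5 were at least 2-fold lower and 1 higher in Mist1+ than in Mist1-, and 4 were higher and none lower in the labelled knockout than in Mist1+. The 4 were Sprr1a, Crct1, Sprr2a3 and Sprr2a1, and Sprr1a, which encodes a small proline-rich cornified envelope protein, was at 83.8 FPKM in the labelled knockout, 8.74 in Mist1+ and 22.1 in Mist1-. Sprr2a1, Sprr2a2 and Sprr2a3 belong to a set of nearly identical copies. A read may have no unique place among such copies, so the values of these Sprr2a genes are uncertain. Each of them is counted among the 5 lower genes, and Sprr2a1 and Sprr2a3 also among the 4 higher ones, so these counts are not of independent genes. In the 500 kb before S100a1, 15 protein-coding genes passed, of which 1 was lower and 1 higher in Mist1+, and 1 was lower and none higher in the labelled knockout. Markers of keratinocytes and squamous epithelium summed to 97.6 FPKM in the labelled knockout, 13.8 in Mist1+ and 30.9 in Mist1-, with 4 of 12 at 1 FPKM or more in some library and Sprr1a the largest term; Trp63 had 0 counts, Krt5 at most 1 and Krt14 at most 2. Their part in the S100 levels, like that of Cd68 and Ltf, was not tested.

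The genes with a pattern most like that of S100a6 were ranked by the distance of their log2 ratios in 2 comparisons, Mist1+ over Mist1- and the labelled knockout over Mist1+, among 8084 protein-coding genes that reached 5 FPKM in any library. Over these 3 libraries the nearest was Phgr1, at a distance of 0.21, with 23.6 FPKM in the labelled knockout, 7.79 in Mist1+ and 39.6 in Mist1-. Nenf (0.55), Sprr2a1 (0.61) and the trefoil factor gene Tff2 (0.61) were also among the nearest. The values of Sprr2a1 are uncertain, as said above. Exonic lengths were 547 bases for Phgr1, 742 for Nenf, 584 for Tff2 and 3003 for Sprr2a1. The length trend was not removed from these ratios, and its part in the likeness was not tested. S100a10 stood 8th, at 0.64. S100a1, S100a11, S100a13, S100a14 and S100a16 were further off, between 431st and 555th.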

How the data were processed

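The submitters' processing notes name HISAT2 2.2.1, HTSeq 0.6.1, cutadapt 1.9.1 and the build GRCm38.p5. The table deposited by the authors holds, for each gene and library, an unnormalized count and an FPKM. The authors' FPKM were recomputed from count, exonic length and column total and differed by at most 2.77% for genes with at least 50 counts. Use of strand in counting is not given in the sources used here. Identifiers were matched to GENCODE M21; start and end were the same for none of the 10 members and 2.83% of 52073 shared identifiers, so coordinates are those of M21.

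The members and gene lists were chosen with earlier results of these data known. Genes that reached 1 FPKM were kept, and the pseudocount was 1. There is no p-value. Intervals of levels are exact Poisson ones and those of folds come from an exact binomial split of the paired counts, both at 95%. The fold and call code was tested on simulated data. The naming rule takes all members, other S100 genes, up to 4 genes per list with the largest ratio, partners of members, the 5 genes nearest S100a6 and up to 5 genes of the locus. Other genes named beside them were chosen after their values were seen. A gene that the rule takes is not reported here. Of 10 lists, the endothelial one had no gene at 1 FPKM. Alternatives were pseudocounts of 0.1 and 5, other filters, scalings and cutoffs, and removal of the length trend by lowess (fraction 0.3). The protein-coding length class was added after the data were seen. Computation used Python 3.11.15 with statsmodels 0.14.6, scipy 1.17.1, matplotlib 3.10.9, pandas 2.3.3 and numpy 2.4.6.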

Additional observations from a re-analysis of the deposited data

How the results depend on the processing

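With a pseudocount of 5, 2 members were past 2-fold lower for Mist1+ over Mist1-, and relative to Mist1- the labelled knockout had 1 lower and 0 higher. Without a filter the median for the labelled knockout over Mist1- was -0.62, over 10 members. With FPKM rescaled to a common sum, 1 member was lower there and the median was -0.57, over 8 members; the count for Mist1+ over Mist1- stayed at 4, with S100a4, which passes the filter on that scale, in the place of S100a13; under median ratio scaling 7 were lower in Mist1+ than in Mist1-. At 1.5-fold, 7 were lower in Mist1+ than in Mist1- and 5 in the labelled knockout than in Mist1-. At 4-fold, 1 was lower in Mist1+ than in Mist1-, 1 was higher in the labelled knockout than in Mist1+, and 0 were lower or higher than in Mist1-. With the length trend removed, 2 were lower in Mist1+ than in Mist1- (median -0.65) and 1 in the labelled knockout than in Mist1- (median -0.52). The main medians over the 7 members were -1.0 for Mist1+ over Mist1-, 0.11 for the labelled knockout over Mist1+ and -0.84 over Mist1-. The ratio of S100a10 for the labelled knockout over Mist1- turned to 0.17 on a common sum and to 0.24 without the length trend. Of 147 ratios of single members under an alternative, 114 were classed as close to the main ratio, 31 as moved and these 2 changed sign. A ratio classed as close can lie outside the counting interval. S100a14 for Mist1+ over Mist1- was at -0.38 with a pseudocount of 5, while its interval was 2.04-fold to 5.96-fold lower. The cause of the shifts was not tested. Scaling moved the median of all genes for Mist1+ over Mist1- from 0.15 to 0.45 on a common sum and to -0.03 by median ratio. No paired analysis was possible because each group has 1 library. Depth limits S100a4, S100a8 and S100a9, which had at most 4 counts.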
